A study of Mus musculus with 9 samples.

Results

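The genes described here are 10 repressors and outputs of the mammalian circadian clock, measured by RNA-seq in mouse macrophages stimulated with lipopolysaccharide (LPS). They are Per1, Per2, Cry1, Cry2, Nr1d1, Nr1d2, Bhlhe40, Bhlhe41, Tef and Nfil3, found by symbol among the 15343 genes of the table. All 10 passed the filter on low values, as did 13895 genes in all. The 10 were chosen by gene family, with their differences between treated and LPS libraries in these same data already known. Their differences are therefore given as a description, with no p-value printed for any member. Members under a p threshold are counted, and some named, beside the count or share of all genes, and nothing is read from this. The cells were intraperitoneal macrophages from mice marked WT, with the strain written CF7B1/6 and no age given. Every group received LPS, an outer membrane molecule of bacteria that acts through TLR4, at 100 ng/ml for 6 h. The LPS group had no pretreatment in its labels. The DHA + LPS group received docosahexaenoic acid, an omega-3 fatty acid, at 100 µM for 1 h before LPS. The cpdA + LPS group received cpdA, labelled a small-molecule agonist of the fatty acid receptor Gpr120, at 10 µM for 1 h before LPS. Each group had 3 libraries, and no library without LPS was analysed here. The labels give no time of day at which cells were taken.

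The clock is a feedback loop of transcription. CLOCK and BMAL1 (encoded by Arntl) switch on the Per, Cry, Nr1d and Dec (Bhlhe40 and Bhlhe41) genes through E-boxes, and the PER-CRY complex then inhibits CLOCK and BMAL1. The REV-ERB receptors (Nr1d1 and Nr1d2) repress Arntl at sites they share with the activating ROR receptors. TEF activates and NFIL3 represses the output genes that carry D-boxes. In macrophages REV-ERB alpha is known as a repressor of inflammatory genes, and several clock genes also respond directly to hormones, cAMP and other acute signals.

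Recovered depth was 13797079 to 37572822 reads per library. LPS 3 and cpdA 3 stood apart from the libraries of their groups: the first principal component, 40.5% of the variance, separated cpdA 3, and the second, 28.8%, separated LPS 3. Results are therefore given with and without these libraries. The macrophage marker list was present in all libraries, with a summed normalized count of 312039 to 574569 in LPS, 555047 to 576577 in DHA + LPS and 381083 to 580425 in cpdA + LPS. Most of each sum was Lyz2, which was lowest in LPS 3 (210386) and cpdA 3 (269049). Csf1r lay above LPS in every treated library, at 7849 ± 293 in LPS, 10997 ± 397 in DHA + LPS and 14459 ± 6418 in cpdA + LPS (SD, n = 3). Itgam did so after DHA only, and Adgre1, Cd68, Cd14 and Lyz2 overlapped with LPS after either pretreatment. Of the T and NK cell markers 2 of 5 were in the table, with sums of 6.7 to 19.1 over all libraries. Sums of 4 mast cell markers were 207.5 to 221.0 in LPS, 119.0 to 136.1 in DHA + LPS and 131.3 to 216.3 in cpdA + LPS. For 4 dendritic cell markers they were 154.3 to 200.5, 113.5 to 136.0 and 125.8 to 139.4. The 5 B cell markers summed to 253.7 to 311.2, 182.7 to 229.5 and 231.7 to 320.4, and the 2 neutrophil markers in the table to 74.7 to 301.9, 331.5 to 410.6 and 52.5 to 411.6. The 5 mesothelium and fibroblast markers, led by Col1a1 and Col3a1, summed to 11583 to 18736, 12500 to 14270 and 12465 to 14403. No marker in the table was at 0 in every library. The part of these cells in the clock gene values was not tested, and in bulk RNA fewer cells of a type and less RNA per cell cannot be told apart.

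Promoter sequences are shown for 5 members whose treated libraries all lay above the LPS libraries, because E-boxes are the element through which the loop acts. Windows of 300 bases from RefSeq (build GRCm38.p6, from 250 bases before a gene's start to 50 after) were at hand for 8 of the 10 members, 10 windows in all. Per2 and Bhlhe40 had none. The E-box CACGTG was found in 5 of the 10 windows, those of Per1, Cry1, Bhlhe41 and both of Tef, against 7.15% of 32851 windows of all genes. The variant CACGTT, on either strand, was in those of Cry1, Cry2 and Nr1d1 (4.68% of all windows). The half-site AGGTCA of REV-ERB and ROR receptors was in those of Per1, Nr1d2 and Nfil3 (16.3% of all). Neither the D-box, searched as TTATGTAA or TTACGTAA (1.06% of all), nor the cAMP element TGACGTCA (1.79% of all) was found in a member's window. All motifs were searched on both strands and no matches overlapped in the members. Capitals mark these matches in the sequences below, which are written 5′ to 3′ on the gene's strand and lie at chr11:69098699-69098998 (Per1, plus strand), chr10:85185005-85185304 (Cry1, minus), chr11:98775328-98775627 (Nr1d1, minus), chr6:145865371-145865670 (Bhlhe41, minus) and chr15:81802423-81802722 (Tef, plus).
Per1: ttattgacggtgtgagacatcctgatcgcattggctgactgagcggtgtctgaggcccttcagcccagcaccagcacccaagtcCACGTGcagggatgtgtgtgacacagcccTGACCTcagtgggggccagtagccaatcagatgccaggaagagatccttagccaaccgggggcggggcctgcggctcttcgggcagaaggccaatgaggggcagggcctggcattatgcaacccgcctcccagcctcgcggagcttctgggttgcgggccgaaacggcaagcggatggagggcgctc
Cry1: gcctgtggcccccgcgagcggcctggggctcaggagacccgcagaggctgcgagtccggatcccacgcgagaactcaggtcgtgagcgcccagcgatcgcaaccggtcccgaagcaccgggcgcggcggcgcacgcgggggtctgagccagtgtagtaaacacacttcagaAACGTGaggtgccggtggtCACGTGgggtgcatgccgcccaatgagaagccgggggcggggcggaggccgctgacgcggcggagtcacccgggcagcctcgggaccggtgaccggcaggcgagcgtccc
Nr1d1: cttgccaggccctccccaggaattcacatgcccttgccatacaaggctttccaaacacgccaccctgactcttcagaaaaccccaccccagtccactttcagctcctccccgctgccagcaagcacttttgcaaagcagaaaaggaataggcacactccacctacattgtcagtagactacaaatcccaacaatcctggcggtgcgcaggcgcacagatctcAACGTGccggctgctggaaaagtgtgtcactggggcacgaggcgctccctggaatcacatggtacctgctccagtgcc
Bhlhe41: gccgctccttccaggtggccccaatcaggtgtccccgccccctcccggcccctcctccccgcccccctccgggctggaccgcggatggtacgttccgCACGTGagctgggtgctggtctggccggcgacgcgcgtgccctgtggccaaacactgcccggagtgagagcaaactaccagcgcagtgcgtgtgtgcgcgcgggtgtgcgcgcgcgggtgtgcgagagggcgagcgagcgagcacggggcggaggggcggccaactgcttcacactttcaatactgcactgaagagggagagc
Tef: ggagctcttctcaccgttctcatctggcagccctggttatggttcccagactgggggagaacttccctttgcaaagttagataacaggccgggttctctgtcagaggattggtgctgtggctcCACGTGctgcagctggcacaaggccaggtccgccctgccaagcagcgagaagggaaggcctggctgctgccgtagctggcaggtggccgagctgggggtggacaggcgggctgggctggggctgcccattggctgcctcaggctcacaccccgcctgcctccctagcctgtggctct

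The E-box of the Cry1 window began 60 bases before the start and its CACGTT variant, read on the other strand, 79 bases before it. In Per1, Bhlhe41 and the Tef window shown the E-box began 166, 153 and 127 bases before the start. The Nr1d1 variant began 28 bases before it. Cry2, which also lay above LPS, had the CACGTT variant but no CACGTG, and its window is not shown. Among the other clock genes with a window searched, CACGTG was found only in Ciart, beginning 116, 58 and 44 bases before the start. Ciart lay below LPS in both treated groups. These are matches of letters, not measured binding sites, and their part in the differences was not tested.

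The comparison of each pretreatment with LPS alone asks which clock genes differed in stimulated macrophages after DHA or after cpdA. Of the 10 members, 8 had all 3 DHA + LPS libraries above all 3 LPS libraries, as did 13.0% of the 13895 genes tested, and 0 had them all below, as did 15.0%. For cpdA + LPS 8 members again had all 3 libraries above LPS, against 10.7% of all genes, and 0 below, against 12.2%. The 8 were Per1, Per2, Cry1, Cry2, Nr1d1, Bhlhe40, Bhlhe41 and Tef in both comparisons, which share their LPS libraries. Nr1d2 and Nfil3 overlapped with LPS in both. Values below are normalized counts, that is, reads divided by the authors' size factor for the library, and levels of different genes are not compared since they are not scaled to gene length.

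**Figure D1:**
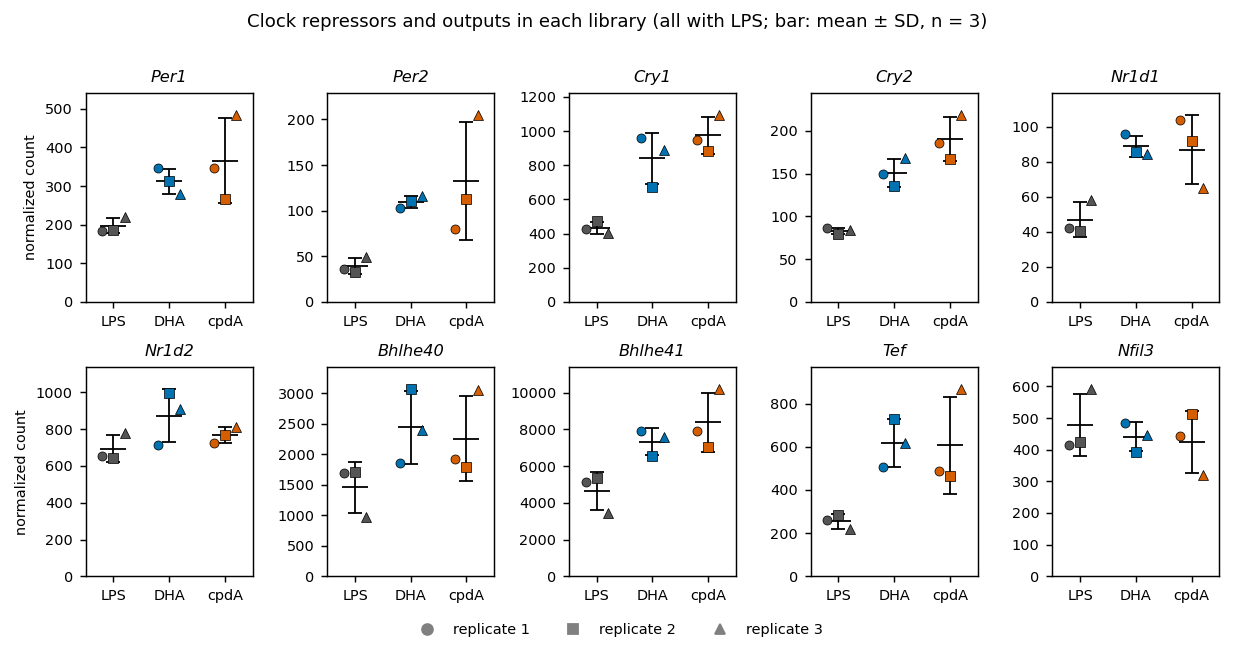
Normalized counts (y axis, linear from 0) of the 10 clock genes in each of the 9 libraries, by group (x axis; all with LPS). Symbols mark replicate numbers, and bars the mean ± SD of 3 libraries. In 8 panels the treated points lie above all LPS points, while those of Nr1d2 and Nfil3 overlap.

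The period genes encode the scaffold proteins of the repressor complex. Per2 had normalized counts of 35.9, 32.3 and 49.1 in LPS 1, 2 and 3, of 102.5, 110.5 and 115.7 in DHA 1, 2 and 3, and of 80.4, 112.3 and 204.6 in cpdA 1, 2 and 3. Both treated groups lay above LPS and overlapped each other, and cpdA 3 stood highest. The log2 difference from LPS was 1.48 (SE 0.32) for DHA and 1.65 (SE 0.32) for cpdA, the largest of the 10 in both comparisons. These counts rest on few reads, 28 to 226 per library. Per1, the more acutely inducible period gene, had 184.8, 186.7 and 219.0 in LPS, 345.5, 312.3 and 280.4 in DHA + LPS, and 347.0, 266.5 and 483.5 in cpdA + LPS. Again the lowest treated library lay above the highest LPS library, and cpdA 3 was the highest of all. Per1 differed from LPS by 0.66 (SE 0.20) for DHA and 0.85 (SE 0.20) for cpdA on the log2 scale.

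Both cryptochromes, the subunits that inhibit CLOCK and BMAL1 most directly, had tight LPS values. In LPS Cry1 stood at 428.2, 472.5 and 404.2, in DHA + LPS at 958.6, 674.3 and 890.3, and in cpdA + LPS at 945.9, 884.7 and 1092.9. The lowest treated value, in DHA 2, was still above every LPS value. The log2 difference was 0.94 (SE 0.14) for DHA and 1.16 (SE 0.14) for cpdA. Cry2 read 85.9, 79.5 and 83.9 in LPS, 149.4, 135.3 and 168.0 in DHA + LPS, and 185.2, 167.3 and 218.2 in cpdA + LPS. Its LPS mean was 83.1 ± 3.27 (SD, n = 3), a spread far below the gap to either treated group. Cry2 differed from LPS by 0.85 (SE 0.15) for DHA and 1.18 (SE 0.15) for cpdA.

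The 2 REV-ERB genes encode heme-binding repressors. Nr1d1 had 42.4, 40.3 and 58.3 in LPS, 95.9, 85.7 and 84.6 in DHA + LPS, and 103.7, 91.8 and 65.2 in cpdA + LPS, from 35 to 112 reads per library. Here cpdA 3 was the lowest treated library and LPS 3 the highest LPS library, so the groups were nearest to each other in these libraries. The log2 difference was 0.92 (SE 0.23) for DHA and 0.87 (SE 0.23) for cpdA. Nr1d1 overlaps the thyroid hormone receptor gene Thra in the RefSeq annotation, and the use of strand is not given, so some reads could belong to either. Thra itself had 215.4 ± 26.2 in LPS, 234.5 ± 42.5 in DHA + LPS and 251.4 ± 17.0 in cpdA + LPS (SD, n = 3), with overlapping groups.

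Nr1d2 had 656.5, 645.3 and 779.7 in LPS, 715.6, 995.7 and 908.1 in DHA + LPS, and 724.8, 770.7 and 813.1 in cpdA + LPS. LPS 3 lay above DHA 1, cpdA 1 and cpdA 2, so neither treated group was separate from LPS. Its log2 differences, 0.32 (SE 0.13) and 0.15 (SE 0.13), were the smallest positive ones among the members. Whether Nr1d1 and Nr1d2 differ in response was not tested.

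The DEC genes encode helix-loop-helix repressors that compete for E-boxes. Bhlhe41 had 5118, 5352 and 3457 in LPS, 7894, 6522 and 7587 in DHA + LPS, and 7904, 7054 and 10172 in cpdA + LPS. No treated library reached down to the LPS values. The log2 difference was 0.68 (SE 0.20) for DHA and 0.86 (SE 0.20) for cpdA. Bhlhe40, which also restrains Il10 in immune cells, had 1690, 1717 and 980.2 in LPS, 1866, 3065 and 2405 in DHA + LPS, and 1920, 1795 and 3056 in cpdA + LPS. Both treated groups lay above LPS, but by little, and overlapped each other: DHA 1, cpdA 1 and cpdA 2 lay near LPS 1 and LPS 2, and LPS 3 was far below them. The log2 difference of 0.76 (SE 0.28) for DHA was 0.49 (SE 0.17) without LPS 3 and cpdA 3, and that of 0.63 (SE 0.28) for cpdA was 0.12 (SE 0.19). The Bhlhe40 value for cpdA thus rests on the 2 libraries that stood apart.

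Tef and Nfil3 encode bZIP proteins that meet at D-boxes, the first as activator and the second as repressor. Tef had 261.9, 284.6 and 216.9 in LPS, 508.3, 730.7 and 616.5 in DHA + LPS, and 486.7, 466.5 and 865.6 in cpdA + LPS. Every treated library was well above LPS, with cpdA 3 and DHA 2 highest. The log2 difference was 1.27 (SE 0.24) for DHA and 1.20 (SE 0.24) for cpdA, next to Per2 in size. Nfil3, known for control of interleukin 12 in myeloid cells, had 416.3, 424.1 and 590.4 in LPS, 483.7, 393.5 and 445.2 in DHA + LPS, and 442.3, 514.1 and 319.6 in cpdA + LPS. The groups overlapped, with the extremes in LPS 3 and cpdA 3. Its log2 differences were -0.10 (SE 0.20) and -0.17 (SE 0.20), and became 0.06 (SE 0.11) and 0.18 (SE 0.13) without those libraries.

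**Figure D2:**
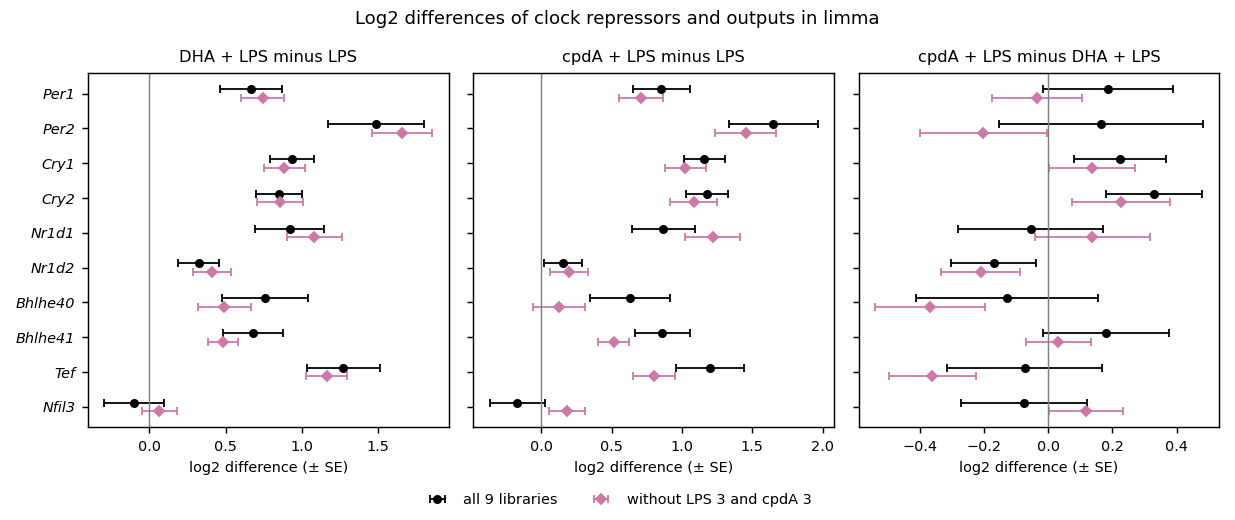
Log2 differences (x axis, ± SE) of the 10 genes (y axis) in limma for each comparison, with all 9 libraries (black circles) and without LPS 3 and cpdA 3 (pink diamonds). Against LPS, Per2 and Tef lie farthest right with all 9 libraries and Nfil3 near 0, and in the panel of cpdA against DHA the values scatter around 0.

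As a group the 10 members had a median log2 difference of 0.80 for DHA, beside -0.001 for all genes tested, with 9 of 10 positive beside 49.8%. For cpdA the median was 0.86 beside -0.004, with 9 of 10 positive beside 49.4%. With all 9 libraries, limma (Benjamini-Hochberg adjusted p under 0.05) called 0 members in either comparison with LPS, where 1 gene in each, 0.00720% of those tested, was called. At an unadjusted p under 0.05 there were 9 members for DHA, beside 14.2% of all genes, and 7 for cpdA, beside 14.6%. In the counts of recovered reads edgeR called 0 members in each, beside 0.0216% of all genes for DHA and 0.00720% for cpdA. DESeq2 called 5 for DHA and 7 for cpdA, beside 2.31% and 3.26% of the genes to which it gave an adjusted p. These counts restate how the members were chosen, and nothing is read from them. With the replicate number as a block 0 members were called, and 0 genes in all.

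Without LPS 3 and cpdA 3 limma called 7 members higher after DHA, where 2.75% of all genes were called higher, and 0 lower, where 4.04% were. After cpdA it called the same 7 higher, against 0.712% of all genes, and 0 lower, against 0.885%. These were Per1, Per2, Cry1, Cry2, Nr1d1, Bhlhe41 and Tef. Since the genes were chosen with such differences known, these counts are a description. Each comparison then keeps 2 LPS libraries, and the cpdA group 2. In that fit the log2 differences for DHA were 1.66 (SE 0.20) for Per2, 1.16 (SE 0.14) for Tef, 1.08 (SE 0.18) for Nr1d1, 0.89 (SE 0.13) for Cry1, 0.86 (SE 0.15) for Cry2, 0.74 (SE 0.14) for Per1 and 0.48 (SE 0.10) for Bhlhe41. For cpdA they were 1.45 (SE 0.22) for Per2, 1.22 (SE 0.20) for Nr1d1, 1.08 (SE 0.17) for Cry2, 1.02 (SE 0.15) for Cry1, 0.80 (SE 0.15) for Tef, 0.71 (SE 0.15) for Per1 and 0.51 (SE 0.11) for Bhlhe41.

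The pair of libraries left out can be read by itself. Between cpdA 3 and LPS 3 the log2 difference was positive in 9 of 10 members, as it was in 49.1% of all genes. It was 2.04 for Per2, 1.99 for Tef, 1.64 for Bhlhe40, 1.56 for Bhlhe41, 1.43 for Cry1, 1.37 for Cry2 and 1.14 for Per1. For Nr1d1 it was 0.16 and for Nr1d2 0.06, and Nfil3 was lower in cpdA 3 at -0.88. These are single libraries with no replicate check.

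**Figure D3:**
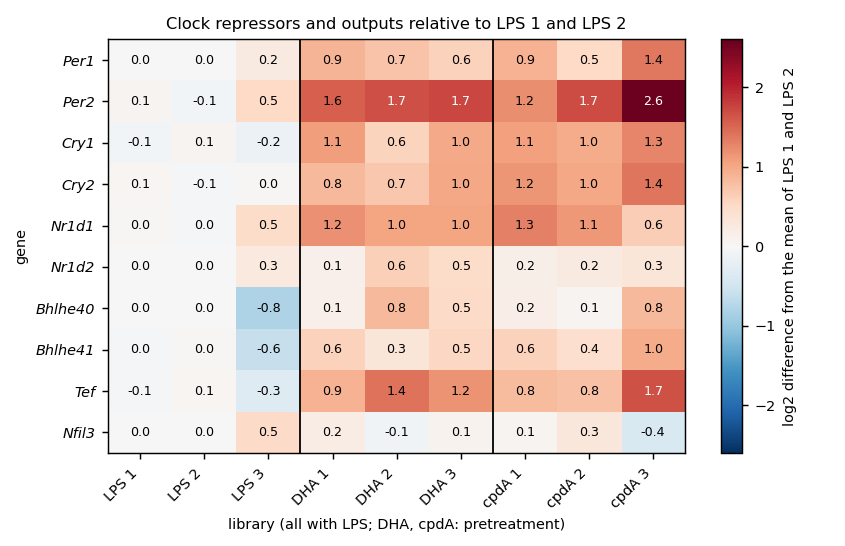
Log2 difference of each gene (y axis) in each library (x axis) from the mean of LPS 1 and LPS 2, from blue (lower) to red (higher). All 6 treated libraries are red for Per1, Per2, Cry1, Cry2, Nr1d1, Bhlhe41 and Tef, while LPS 3 is blue for Bhlhe40 (-0.80) and Bhlhe41 (-0.60).

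The comparison of cpdA + LPS with DHA + LPS asks whether the pretreatments differed from each other, at different doses. Of the 10 members 0 had groups that did not overlap, beside 3.04% of all genes higher and 2.61% lower. The limma test called 0 members and 0 genes in all (0% of those tested), with and without LPS 3 and cpdA 3. At an unadjusted p under 0.05 there were 0 members with all libraries, beside 1.02% of all genes, and 1 without these, beside 5.04%. Neither edgeR nor DESeq2 called a gene. The largest difference was that of Cry2, 0.33 higher with cpdA (95% interval -0.01 to 0.67). For Per2 it was 0.17 (interval -0.55 to 0.88), for Cry1 0.22 (-0.10 to 0.55), for Nr1d1 -0.05 (-0.56 to 0.45) and for Tef -0.07 (-0.62 to 0.47). These intervals include 0 and leave room for differences in either direction, so they do not show that the pretreatments act alike. Without LPS 3 and cpdA 3 the value for Per2 was -0.20 (SE 0.20) and that for Tef -0.36 (SE 0.14).

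The rest of the clock was read from a list of 31 further genes, of which 30 were in the table and 28 were kept. With all 9 libraries limma called 0 of the 28 in any comparison, and 4 had an unadjusted p under 0.05 for DHA, 7 for cpdA and 1 between them, where 14.2%, 14.6% and 1.02% of all genes did. In the counts, edgeR called 0, beside 0.0216% of all genes for DHA and 0.00720% for cpdA. DESeq2 called Npas2 for DHA and Klf10 for cpdA, beside 2.31% and 3.26% of the genes to which it gave an adjusted p. The median log2 difference of the 28 was -0.06 for DHA and -0.025 for cpdA, with 13 positive in each. For DHA 5 of the 28 lay wholly above LPS and 8 wholly below, beside 13.0% and 15.0% of all genes. For cpdA the counts were 5 and 7, beside 10.7% and 12.2%.

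The activators Arntl and Clock, against which the PER-CRY complex works, had narrow ranges. Arntl, the known target of REV-ERB repression, had 208.0 ± 19.3 in LPS, 189.8 ± 13.1 in DHA + LPS and 207.6 ± 16.3 in cpdA + LPS (SD, n = 3), with overlapping groups and log2 differences of -0.13 and -0.002 (limma adjusted p = 0.655 and 0.995). Clock had 1186 ± 23.7, 1368 ± 101 and 1393 ± 112 (SD, n = 3); both treated groups lay above LPS, by 0.20 and 0.23 (SE 0.09 for each; limma adjusted p = 0.355 and 0.299). Arntl2, a BMAL1 paralogue, was low, at 6.1 to 15.0 over all libraries, with overlapping groups.

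Npas2, a CLOCK paralogue, and Dbp, the D-box activator most closely related to Tef, were uneven within the DHA group. Npas2 had 7.6, 9.2 and 6.1 in LPS, 13.4, 46.2 and 34.5 in DHA + LPS, and 11.6, 11.5 and 12.7 in cpdA + LPS. These values rest on 6 to 41 reads per library. In DHA 1 a single read was worth 2.23, more than the gap between DHA 1 and cpdA 3. No LPS library reached the value that the filter on low values required, so Npas2 was kept through its treated libraries only. A gene at this LPS level in all libraries would have been dropped. Nothing is therefore read from the separation of Npas2 from LPS, its place in the counts above LPS or its DESeq2 call. All 6 treated libraries lay above LPS, and the cpdA values below all DHA values, but DHA 1 was close to the cpdA libraries. Its log2 difference was 1.76 for DHA and 0.60 for cpdA (limma adjusted p = 0.220 and 0.551), and -1.16 between cpdA and DHA (SE 0.43; limma adjusted p = 1). Dbp had 25.0, 21.9 and 23.5 in LPS, 17.8, 111.6 and 80.1 in DHA + LPS, and 18.0, 21.3 and 47.1 in cpdA + LPS. The Dbp values rest on 8 to 99 reads per library. DHA 1, cpdA 1 and cpdA 2 were below every LPS library while DHA 2, DHA 3 and cpdA 3 were above, so the Dbp groups overlapped (log2 difference 1.19 for DHA, SE 0.62; limma adjusted p = 0.413). DHA 2 and DHA 3 also exceeded DHA 1 in Bhlhe40, Tef and Nr1d2. Recovered depth was 13797079 reads in DHA 1, the lowest of the 9, and its part in these values was not tested. Dbp overlaps Sphk2 in the annotation, which had 1961 ± 131, 1991 ± 322 and 2022 ± 270 in the 3 groups (SD, n = 3).

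**Figure D4:**
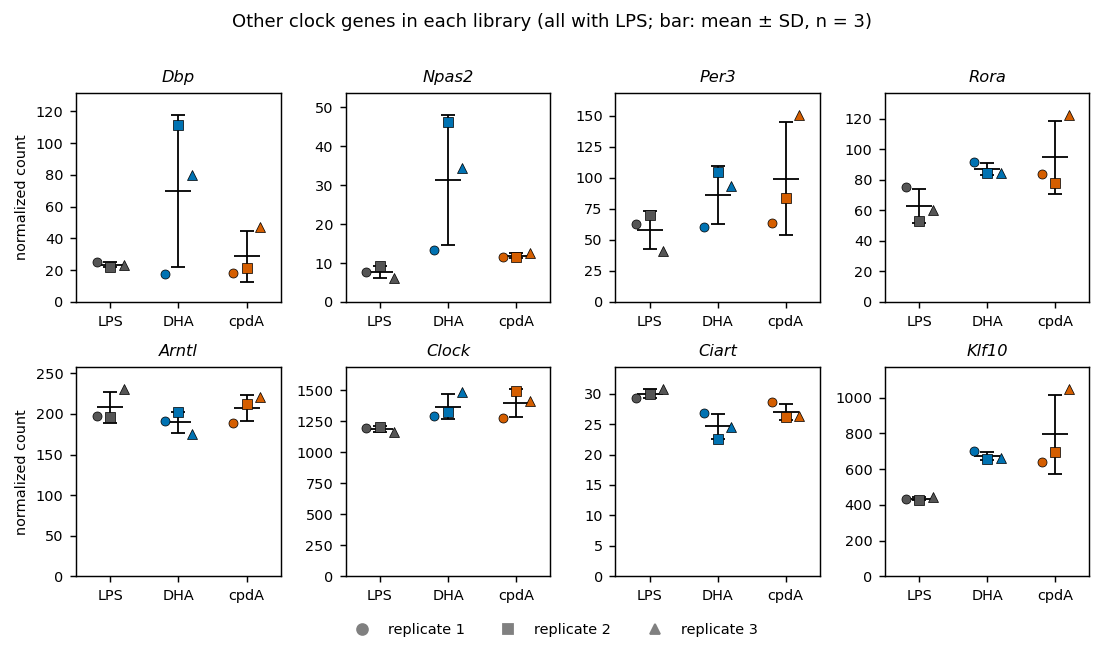
Normalized counts (y axis, linear from 0) of 8 other clock genes in each of the 9 libraries, by group (x axis; all with LPS). Symbols mark replicate numbers, and bars the mean ± SD of 3 libraries. Dbp and Npas2 are high in DHA 2 and DHA 3 but not in DHA 1, and Klf10 lies above LPS in every treated library.

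Per3, the remaining period gene, had 63.0, 70.3 and 40.9 in LPS, 60.2, 104.9 and 93.5 in DHA + LPS, and 63.5, 83.6 and 150.3 in cpdA + LPS, with overlapping groups. Its log2 differences were 0.56 and 0.70 (SE 0.36 for each; limma adjusted p = 0.488 and 0.391). For DHA the Per3 value was 0.33 without LPS 3, and for cpdA it was 0.36 without cpdA 3 and 0.13 without both. Rora, an activator at REV-ERB sites, had 62.8 ± 11.2, 86.9 ± 3.93 and 94.6 ± 24.1 (SD, n = 3), with both treated groups above LPS by 0.48 and 0.57 (limma adjusted p = 0.359 and 0.285). Rorb was at 10.2 to 37.0 with overlapping groups. Ciart, a further repressor of CLOCK and BMAL1, had 30.0 ± 0.70, 24.6 ± 2.10 and 27.0 ± 1.36 (SD, n = 3). It lay below LPS in both treated groups, by log2 differences of -0.28 and -0.15 (limma adjusted p = 0.545 and 0.776), on 12 to 32 reads per library.

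Among clock-controlled outputs, Klf10, a zinc finger factor induced by TGF-beta, had 432.6, 426.4 and 444.1 in LPS, 702.2, 658.5 and 661.0 in DHA + LPS, and 641.2, 696.1 and 1046.7 in cpdA + LPS. Both treated groups lay above LPS and overlapped each other, and the 3 LPS values were close together. Its log2 difference was 0.63 for DHA (SE 0.16; limma adjusted p = 0.233) and 0.84 for cpdA (SE 0.16; limma adjusted p = 0.161). Without LPS 3 and cpdA 3 Klf10 rose in both comparisons, by 0.65 (SE 0.09; limma adjusted p = 0.00192) and 0.64 (SE 0.10; limma adjusted p = 0.00768). Timeless, a replication fork gene related to the fly clock gene of that name, fell by 0.47 in that fit for DHA (SE 0.11; limma adjusted p = 0.0279), and was -0.09 for cpdA (adjusted p = 0.86). With all libraries both treated groups lay below LPS, and the Timeless differences were -0.75 for DHA and -1.03 for cpdA (SE 0.49 for each; limma adjusted p = 0.5 and 0.367). The values then ran from 83.3 in cpdA 3 to 632.3 in LPS 3. Klf10 and Timeless were the 2 of 28 called for DHA without LPS 3 and cpdA 3, and Klf10 the 1 of 28 for cpdA. Of all genes, that fit called 2.75% higher and 4.04% lower for DHA, and 0.712% higher and 0.885% lower for cpdA. Nothing is read from these counts.

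Nampt, the enzyme of NAD salvage, had 31147 ± 1158, 24404 ± 2836 and 23822 ± 4412 (SD, n = 3), with both treated groups below LPS by log2 differences of -0.36 and -0.40 (limma adjusted p = 0.371 and 0.321). Wee1, a cell cycle kinase, had values of 285.8 to 642.6 in LPS, with LPS 3 the highest, and overlapping groups. Klf9, an output that also answers to glucocorticoids, and Csnk1e, a kinase that marks PER proteins for degradation, overlapped with LPS in both treated groups (log2 differences of 0.13 and 0.12 for Klf9 and 0.08 for Csnk1e in both). Of the 13 kept kinases, ligases and corepressors, 1 (Gsk3b) lay above LPS after DHA and 6 below, beside 13.0% and 15.0% of all genes. After cpdA the counts were 1 and 5, beside 10.7% and 12.2%.

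Genes that members are known to repress in macrophages were read beside them. Ccl2, a REV-ERB target, had 36787 ± 2032 in LPS, 16454 ± 1967 in DHA + LPS and 14895 ± 8012 in cpdA + LPS (SD, n = 3), with both treated groups below LPS (limma adjusted p = 0.293 and 0.224). Il10, a Bhlhe40 target, had 25.0, 35.7 and 117.7 in LPS, 6.7, 12.4 and 20.0 in DHA + LPS, and 13.8, 19.7 and 7.2 in cpdA + LPS, also below LPS in both (limma adjusted p = 0.273 and 0.252). The Il10 values rest on 3 to 115 reads per library, and LPS 3 was far above LPS 1 and LPS 2. Il6, Mmp9 and the Nfil3 target Il12b overlapped between groups, with limma adjusted p of 0.982, 0.541 and 0.932 for DHA and 0.543, 0.783 and 0.736 for cpdA. The overlap of Il6 came from LPS 3. Il6 had 16329.2, 15859.8 and 5043.4 in LPS, 10541.8, 8665.7 and 11562.8 in DHA + LPS, and 10417.7, 12593.4 and 125.9 in cpdA + LPS. Both Il6 and Il12b were lowest in cpdA 3, where Il12b had 2463.7, and within LPS in LPS 3, where Il12b had 10062.3. Without LPS 3 and cpdA 3, Ccl2 fell by 1.21 for DHA (limma adjusted p = 0.000298) and by 0.96 for cpdA (limma adjusted p = 0.0043), and Il6 fell by 0.66 for DHA (limma adjusted p = 0.0119). Mmp9, also a REV-ERB target, did not fall in this way. It had 2341.1 and 2449.9 in LPS 1 and 2, 3477.5, 2280.0 and 2687.6 in DHA + LPS, and 3475.7 and 2954.2 in cpdA 1 and 2. The target Cx3cr1, under the filter, was high in DHA 2 and DHA 3 and is given at the end. Whether any target follows the clock genes was not tested.

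The genes whose pattern was most like each member were taken as the 2 of 13895 with the highest Pearson r over the 9 libraries. These values are descriptions: the libraries fall into groups, and cpdA 3 and LPS 3 weigh heavily. Cry1 was most like Manf and Pdia6, both of the endoplasmic reticulum (r = 0.996 and 0.99), and Cry2 most like Manf and Xpot (0.979 and 0.976). The closest to Per2 were Plin2, the lipid droplet coat protein (0.974), and Klf10 (0.97), and to Per1 Cdk2ap2 and Pck2 (0.986 and 0.973). Tef went with Tmem164 and Phf17 (0.995 and 0.986), Bhlhe41 with Cyfip2 and Sec24d (0.994 and 0.987), and Bhlhe40 with Ctnnb1 and Kcnj2 (0.993 and 0.99). Nr1d1 had lower values, 0.949 with Ldhd and 0.938 with Smad1. Nr1d2 was nearest to Paip2 and Abca9 (0.961 each) and Nfil3 to Armc8 and Rbm45 (0.981 and 0.975). Over the 7 libraries without LPS 3 and cpdA 3 these 20 values ran from 0.909 to 0.997.

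Among themselves, Cry1 and Cry2 were the most alike members over 9 libraries (r = 0.97), and over the 7 it was Cry1 and Bhlhe41 (0.989). Nr1d1 correlated with Per1 at 0.668 over 9 libraries and 0.956 over 7. Nfil3 had negative values with 8 of the other 9 members over all libraries, down to -0.83 with Bhlhe40, and with 2 of 9 over the 7. The pattern of Nfil3 against the others therefore rests mainly on LPS 3 and cpdA 3.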

How the data were processed

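RNA-seq of 9 libraries was analysed, 3 per group, grouped by their titles. The authors deposited 1 normalized signal per gene and library. Per the submitters' processing notes, CASAVA 1.8.2, Bowtie2, DESeq and the build mm9 were used; what counted the reads, the annotation and whether strand was used are not stated in any source at hand. The labels' protocol texts concern neural stem cells and histones, not these macrophages, and were set aside. Every deposited value below 1000 was a multiple of 1 step per library within 0.06, the worth of 1 read, and whole reads recovered in this way entered the count tests.

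Genes with a value of at least 10 in at least 3 libraries were kept, 13895 of 15343. With limma 3.58.1 under R 4.3.3 (trend and robust options) a mean per group was fitted to log2(value + 1) of all 9 libraries. P-values were adjusted over these genes by Benjamini-Hochberg, and calls were made under 0.05. Differences are on that scale, which understates those of low genes. As alternatives, recovered counts went into DESeq2 1.42.0 and the quasi-likelihood test of edgeR 4.0.16. The code was tested on simulated data. Nothing in the labels says that replicates came from separate animals or cultures, so p-values measure only the spread between these samples. To check pairing, each library's deviation from its group mean was correlated with that of the library of the same number. LPS and cpdA gave 0.387, 0.234 and 0.437, LPS and DHA 0.14, -0.065 and 0.02, and DHA and cpdA 0.407, -0.345 and 0.013. Libraries of different number reached similar values, 0.292 for LPS 2 with cpdA 1 and 0.264 for LPS 1 with cpdA 2. The highest value of all, 0.452, was for DHA 2 with cpdA 3. LPS 3 and cpdA 3, which stood apart, also enter these values. They therefore do not show whether the replicate numbers are paired, and the main fit had no replicate block.

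The members, lists, motifs and settings were chosen with earlier results of these data known. Named genes are all members, the kept activators, ROR receptors, further repressors and PAR bZIP genes, Wee1, Klf9, Nampt, Csnk1e, other listed clock genes called with all libraries or without LPS 3 and cpdA 3, the target genes, and for each member the 2 genes most like it. Thra and Sphk2 (overlapping genes), Gsk3b (a count of 1), Usp2, Cdkn1a and the cell type markers given by name are named outside this rule, after their values were seen. Promoters are from RefSeq (GRCm38.p6), another build than that of the files, and were matched by gene ID.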

Additional observations from a re-analysis of the deposited data

How the results depend on the processing

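With all 9 libraries limma called 1 gene for DHA, 1 for cpdA and 0 between them. For DHA the count was 3 with TMM scaling, 3 in edgeR, 9 with only the groups compared, 5 at a threshold of 0.1, 315 in DESeq2, 943 without LPS 3 and cpdA 3 and 0 with the replicate block. For cpdA it was 0 with only the groups compared, 7 at the threshold of 0.1, 391 in DESeq2, 222 without LPS 3 and cpdA 3 and 0 with the replicate block. Leaving out each library in turn gave 0 to 373 genes for DHA and 0 to 3 for cpdA. Of the 10 members, 0 with all libraries became 7 without LPS 3 and cpdA 3 and 5 in DESeq2 for DHA, and 7, 7 and 2 (threshold of 0.1) for cpdA; with 1 library left out it was 0 to 6 for DHA, the 6 without cpdA 3, and 0 to 1 for cpdA, the 1 being Cry1 without DHA 2. Of the 28 other clock genes, 0 became 2 without LPS 3 and cpdA 3 and 1 in DESeq2 for DHA, 1 and 1 for cpdA, and 0 to 1 with 1 library left out for DHA, the 1 being Klf10 without cpdA 3. Leaving out cpdA 3 kept the log2 differences for DHA as they were (1.48 for Per2 and 0.94 for Cry1), since it is not in that comparison. It entered only the spread, which the fit shares over all groups. The cause of the other changes was not tested. The count of members was 0 under every alternative for cpdA against DHA. Of 510 log2 differences of members under the alternatives, 6 moved by more than the SD between replicates. All 6 were of cpdA against LPS without LPS 3 and cpdA 3, in Cry1, Nr1d1, Bhlhe40, Bhlhe41, Tef and Nfil3. Bhlhe40 went from 0.63 to 0.12 there, and Tef from 1.20 to 0.80. Of the 510, 18 had the other sign, all in Nfil3 or between cpdA and DHA. Many of the 510 could not move. The fits with no filter, with the block or with only the groups compared, and those without a library of the third group, keep the group means compared. Without LPS 3 and cpdA 3 2 libraries are left in 2 groups, and reads of 28 to 112 behind Per2 in LPS and Nr1d1 limit their precision.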

Other observations

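Cx3cr1, a chemokine receptor gene that REV-ERB represses, fell under the filter on low values. The LPS libraries had normalized counts of 4.1 to 6.9 and the cpdA libraries of 2.1 to 5.7. DHA 1 had 4.5, DHA 2 had 76.7 and DHA 3 had 30.0. As with Dbp and Npas2, DHA 2 and DHA 3 were high and DHA 1 was not. Usp2, a deubiquitinase under clock control, had 25.2 ± 5.85, 27.2 ± 4.02 and 28.3 ± 14.7 in LPS, DHA + LPS and cpdA + LPS (SD, n = 3), and Cdkn1a, a cell cycle inhibitor, had 16967 ± 1931, 15533 ± 3272 and 14905 ± 6476 (SD, n = 3), both with overlapping groups.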
